A study of Mus with 16 samples.

Results

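The hemoglobin genes *Hbb-bs*, *Hbb-bt*, *Hba-a1*, and *Hba-a2*, and *Alas2*, were examined in forebrains of postnatal day 6 (P6) mice as a measure of the blood held in the dissected tissue. They are 5 of the 54219 Ensembl genes in the count table. They were taken by identifier, and all 5 passed the filter on low counts. The groups were 4 WT males, 4 *Kdm5c*-KO males (hemizygous), 4 WT females, and 4 *Kdm5c*-HET females (heterozygous). All carried a mixed C57BL/6J and 129S1/SvImJ background, and the mutant allele lacks exons of *Kdm5c* through a Cre-mediated deletion. Per the paper's methods, the pups came from several litters, and forebrain meant hippocampus and cortex. Perfusion is not mentioned there. The sample labels also carry a letter, D in 8 animals and E in the other 8, which the paper does not explain. No identifier in the tables used here is paired with *Kdm5c*, so its expression is not analysed here.

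Hemoglobin is assembled from alpha-globin and beta-globin chains around heme, and its mRNA persists in young circulating red cells after they have lost their nucleus. *Hbb-bs* and *Hbb-bt* encode the adult beta chains of the C57BL/6 haplotype, and *Hba-a1* and *Hba-a2* the adult alpha chains. *Alas2* encodes the erythroid form of 5-aminolevulinate synthase, which carries out the first step of heme synthesis. In bulk tissue, fewer red cells and less of these mRNAs per cell cannot be told apart.

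RefSeq places the beta genes on chromosome 7 of GRCm38.p6 (mm10), *Hbb-bt* (ENSMUSG00000073940) at 103812524 to 103813923 and *Hbb-bs* (ENSMUSG00000052305) at 103826523 to 103827928. The alpha genes lie on chromosome 11, *Hba-a1* (ENSMUSG00000069919) at 32283672 to 32284486 and *Hba-a2* (ENSMUSG00000069917) at 32296492 to 32297310. The copies of each pair are 12599 and 12005 bases apart. *Alas2* (ENSMUSG00000025270) lies on chromosome X at 150547417 to 150570622, 1662575 bases from *Kdm5c*. No other RefSeq gene overlaps a hemoglobin gene, but *Apex2* and *Mir3620* overlap the span of *Alas2*. The authors kept only uniquely mapped reads, and the copies of each pair are closely related in sequence, so reads shared by the copies are missing from all values below.

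Each animal had between 21513783 and 30063352 counts in total. Together, the 4 hemoglobin genes had 1635 to 4250 counts per animal, or 0.00665 to 0.0143% of the total. *Hbb-bs* had 808 to 2215 counts and *Hba-a1* 681 to 1652. *Hba-a2* (81 to 218), *Hbb-bt* (62 to 165), and *Alas2* (71 to 109) were counted far less deeply, and their values carry more counting error.

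Hemoglobin expression was highest in WT males, and the other 3 groups lay close to each other below them. The summed expression of the 4 hemoglobin genes was 118, 146, 137, and 121 CPM (counts scaled to the TMM-normalized library size) in WT males 2D, 5D, 7D, and 1E. It was 106, 84.0, 66.1, and 107 CPM in *Kdm5c*-KO males 4D, 6D, 2E, and 3E. The mutant males spread more widely than the WT males. WT females 1D, 3D, 4E, and 5E had 104, 103, 90.8, and 96.0 CPM. *Kdm5c*-HET females 9D, 6E, 8E, and 9E had 103, 98.4, 96.1, and 99.0 CPM. Each WT male was above each of the other 12 animals, and *Kdm5c*-KO males 2E and 6D were the lowest of all.

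**Figure D1:**
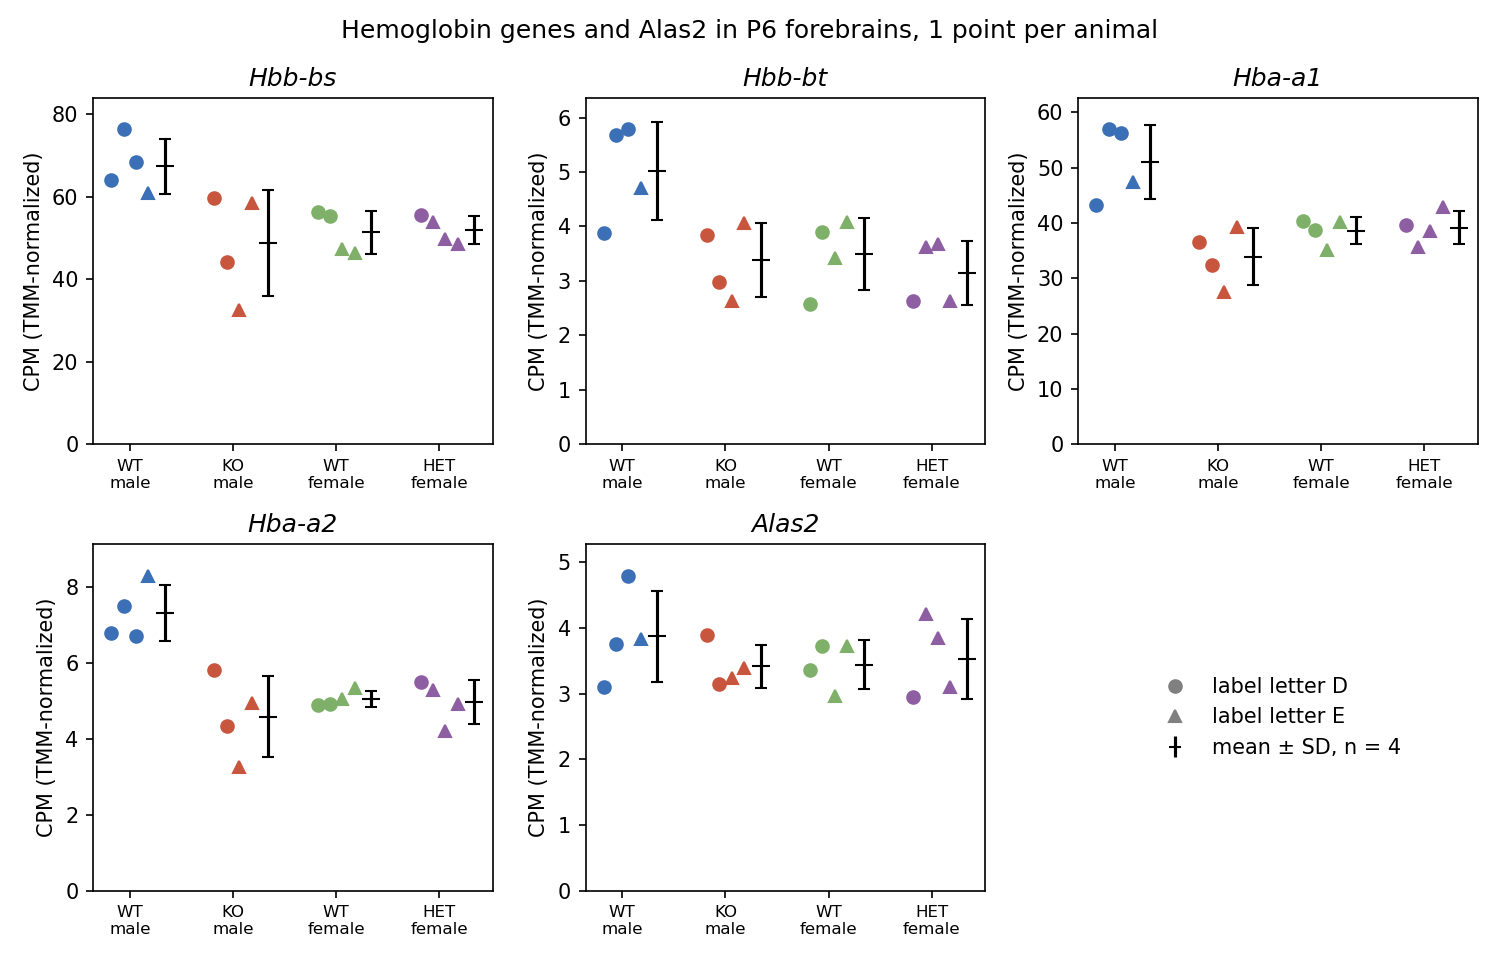
TMM-normalized CPM of each gene on a linear axis from 0, with 1 point per animal, circles for label letter D and triangles for E, and the mean ± SD of each group of 4 in black. The mean of WT males is highest for the 4 hemoglobin genes (*Hba-a1* at 43.3 to 56.9 CPM), while the 4 groups overlap for *Alas2*.

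The first comparison asked how complete loss of *Kdm5c* in males relates to these genes. Of the 5 genes, 3 were lower in *Kdm5c*-KO than in WT males at an adjusted p-value (q) under 0.1 by edgeR's quasi-likelihood test, namely *Hba-a1*, *Hba-a2*, and *Hbb-bs*. Over all 17866 genes tested, 1.69% were called lower in this comparison. The median Log2FC of the 4 hemoglobin genes was -0.58, against -0.00724 over all genes tested. All values of this comparison rest on the same 4 WT males. The 5 genes were chosen with earlier results of these data known, so the number called is not independent evidence.

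*Hba-a1* was expressed at 43.3, 56.9, 56.3, and 47.5 CPM in WT males 2D, 5D, 7D, and 1E and at 36.6, 32.3, 27.5, and 39.3 CPM in *Kdm5c*-KO males 4D, 6D, 2E, and 3E. The highest mutant was below the lowest WT animal. The means were 51.0 ± 6.71 and 33.9 ± 5.16 CPM (SD, n = 4 each), and *Hba-a1* fell by 33.4%, with Log2FC = -0.59 ± 0.0988 (SE; q = 0.00131 from edgeR's quasi-likelihood test). It kept its call with each of the 16 animals left out in turn, with a Log2FC between -0.67 and -0.50.

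*Hba-a2* was expressed at 6.80, 7.51, 6.72, and 8.31 CPM in WT males 2D, 5D, 7D, and 1E and at 5.81, 4.34, 3.27, and 4.94 CPM in *Kdm5c*-KO males 4D, 6D, 2E, and 3E. The groups did not overlap here either. *Hba-a2* fell by 37.3%, with Log2FC = -0.67 ± 0.142 (SE; q = 0.00904), and the call held in each of the 16 fits that left out one animal.

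*Hbb-bs*, the more deeply counted beta gene, was expressed at 64.2, 76.3, 68.3, and 60.8 CPM in WT males 2D, 5D, 7D, and 1E and at 59.6, 44.3, 32.6, and 58.5 CPM in *Kdm5c*-KO males 4D, 6D, 2E, and 3E. *Kdm5c*-KO males 4D and 3E reached almost to the lowest WT male, and the coefficient of variation was 26.3% in *Kdm5c*-KO against 9.91% in WT males. *Hbb-bs* fell by 27.6%, with Log2FC = -0.47 ± 0.130 (SE; q = 0.0557 from edgeR). This call was lost without WT male 5D, WT male 7D, *Kdm5c*-KO male 6D, or *Kdm5c*-KO male 2E, where q rose as far as 0.189.

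*Hbb-bt* was expressed at 3.89, 5.68, 5.78, and 4.71 CPM in WT males 2D, 5D, 7D, and 1E and at 3.85, 2.99, 2.63, and 4.06 CPM in *Kdm5c*-KO males 4D, 6D, 2E, and 3E. Only *Kdm5c*-KO male 3E was above the lowest WT male, 2D. The Log2FC of *Hbb-bt* was -0.57 ± 0.185 (SE, q = 0.112 from edgeR), which did not pass the threshold. It passed with DESeq2 (q = 0.0622), with the letter in the fit (q = 0.0670), without the filter on low counts (q = 0.0543), and without WT male 2D or WT female 1D. When the counts of both beta genes were summed, the Log2FC was -0.47 (q = 0.0446), and with both alpha genes summed it was -0.60 (q = 0.000669).

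*Alas2* was expressed at 3.10, 3.76, 4.80, and 3.83 CPM in WT males 2D, 5D, 7D, and 1E and at 3.89, 3.15, 3.23, and 3.39 CPM in *Kdm5c*-KO males 4D, 6D, 2E, and 3E. The groups overlapped, and WT male 2D was the lowest of the 8. The Log2FC was -0.18 with a 95% confidence interval from -0.50 to 0.15 (q = 0.633 from edgeR), so that a fall as large as that of *Hbb-bs* still lay within the interval. Leaving out WT male 2D moved the Log2FC of *Alas2* to -0.27, and leaving out WT male 7D moved it to -0.06.

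For *Hba-a1*, *Hba-a2*, and *Hbb-bs* each *Kdm5c*-KO male was below each WT male, as were the *Kdm5c*-KO males for 3.87% of all genes tested. That order fixes the order within each label letter, and the values by letter are given as a description. Among the animals with letter D, *Hba-a1* was at 32.3 to 36.6 CPM in 2 *Kdm5c*-KO males and 43.3 to 56.9 CPM in 3 WT males. With letter E it was at 27.5 to 39.3 CPM in 2 *Kdm5c*-KO males and 47.5 CPM in 1 WT male. With letter D, *Hbb-bs* was at 44.3 to 59.6 CPM in *Kdm5c*-KO and 64.2 to 76.3 CPM in WT males. With letter E, it was at 32.6 to 58.5 CPM in *Kdm5c*-KO males and 60.8 CPM in the WT male.

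**Figure D2:**
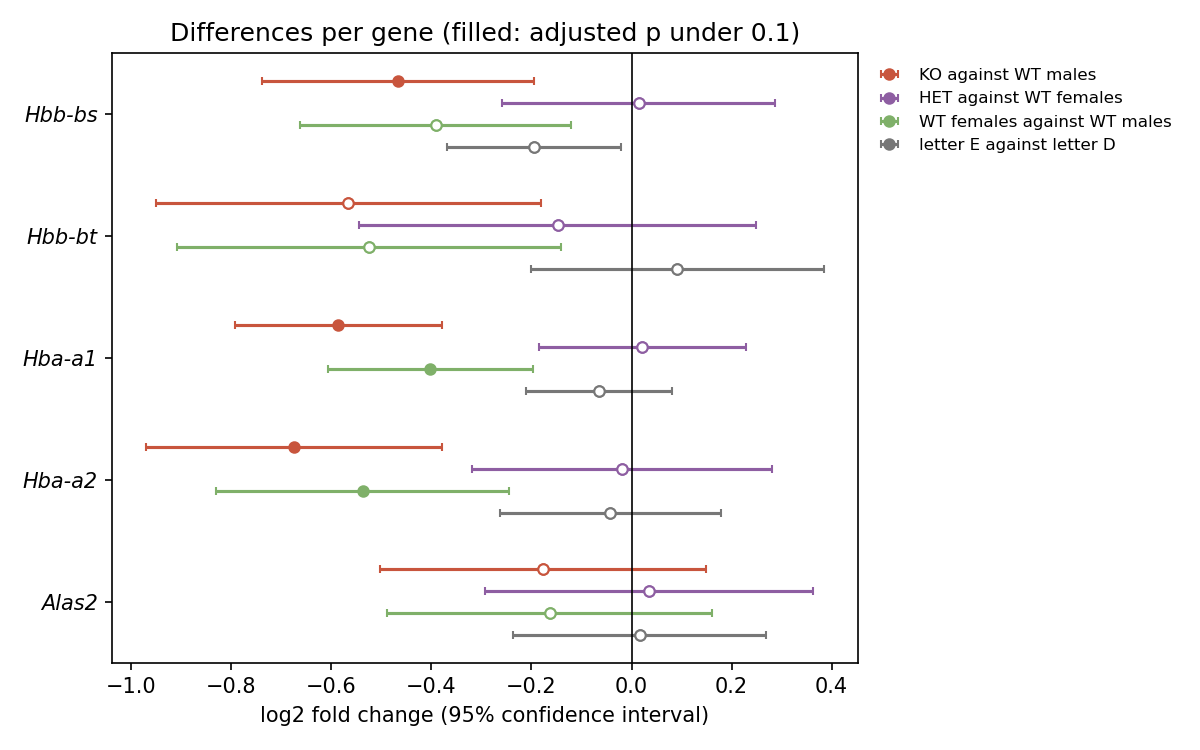
Log2FC of each gene (x axis, log2 scale) with its 95% confidence interval in 4 comparisons, with filled points where q was under 0.1 and open points elsewhere. *Hba-a1* and *Hba-a2* lie below 0 in *Kdm5c*-KO males and in WT females, both set against the same WT males, and the intervals of *Kdm5c*-HET against WT females include 0 for each gene.

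The second comparison asked the same for partial loss in females. None of the 5 genes differed between *Kdm5c*-HET and WT females by edgeR's test or by DESeq2, and none had an unadjusted p under 0.05. Of all genes tested, 0.509% were called in either direction. *Hba-a1* was expressed at 40.3, 38.7, 35.1, and 40.2 CPM in WT females 1D, 3D, 4E, and 5E and at 39.6, 35.6, 38.5, and 42.9 CPM in *Kdm5c*-HET females 9D, 6E, 8E, and 9E. The groups spanned nearly the same range. The Log2FC of *Hba-a1* was 0.02, with a 95% confidence interval from -0.19 to 0.23 (q = 0.999).

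*Hbb-bs* was expressed at 56.4, 55.3, 47.3, and 46.4 CPM in WT females 1D, 3D, 4E, and 5E and at 55.5, 53.9, 49.8, and 48.5 CPM in *Kdm5c*-HET females 9D, 6E, 8E, and 9E. In both genotypes the animal or animals with letter D were the highest. The Log2FC of *Hbb-bs* was 0.01 (95% confidence interval -0.26 to 0.29). The intervals ran from -0.32 to 0.28 for *Hba-a2*, from -0.54 to 0.25 for *Hbb-bt*, and from -0.29 to 0.36 for *Alas2*. The Log2FC measured in males therefore lay outside the female interval for each of the 4 hemoglobin genes, for *Hbb-bt* by a small margin, and inside it for *Alas2*. That reading leaves out the error of the male values, and the difference itself is tested below as an interaction.

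The less deeply counted genes overlapped between the female groups as well. *Hba-a2* was expressed at 4.90, 4.93, 5.04, and 5.35 CPM in WT females 1D, 3D, 4E, and 5E and at 5.51, 5.30, 4.2, and 4.92 CPM in *Kdm5c*-HET females 9D, 6E, 8E, and 9E. The WT females were the tightest of the 4 groups, with a coefficient of variation of 4.04%. *Hbb-bt* was at 2.58, 3.90, 3.42, and 4.07 CPM in the WT females and at 2.64, 3.62, 3.69, and 2.63 CPM in the *Kdm5c*-HET females, in the same order of animals. *Alas2* was at 3.35, 3.73, 2.96, and 3.72 CPM in the WT females and at 2.95, 4.22, 3.85, and 3.09 CPM in the *Kdm5c*-HET females. In the *Kdm5c*-HET females, 6E and 8E were the highest and 9D and 9E the lowest for both *Hbb-bt* and *Alas2*.

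The difference between the male and female effects of genotype was tested as an interaction. None of the 5 genes passed q under 0.1 with edgeR, where 0.0392% of all genes passed, although 3 of the 5 had an unadjusted p under 0.05, as did 6.37% of all genes. For *Hba-a1*, the male effect was lower than the female effect, with Log2FC = -0.61 ± 0.140 (SE; unadjusted p = 0.000328, q = 0.366), rank 16 by p among the 17866 genes. DESeq2 called this difference (q = 0.0316), as did edgeR with the letter in the fit (q = 0.0979) and without the filter on low counts (q = 2.74e-05). For *Hba-a2* the difference was -0.65 (unadjusted p = 0.00413, q = 0.631), and for *Hbb-bs* it was -0.48 (unadjusted p = 0.0171, q = 0.723). Only the edgeR fit without the filter on low counts called *Hbb-bs* (q = 0.00553), and no alternative called *Hba-a2*, *Hbb-bt*, or *Alas2*. Without the filter, the Log2FC was -0.60 for *Hba-a1* and -0.47 for *Hbb-bs*, near the main fit. Their standard errors were smaller, 0.101 in place of 0.140 and 0.101 in place of 0.185.

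The third comparison set WT females against WT males. By edgeR's test, *Hba-a1* and *Hba-a2* were lower in females at q under 0.1. Of all genes tested, 2.41% were called lower and 5% in either direction. *Hba-a1* was at 35.1 to 40.3 CPM in WT females and at 43.3 to 56.9 CPM in WT males, with no overlap. It fell by 24.4%, with Log2FC = -0.40 ± 0.0981 (SE; q = 0.0417). *Hba-a2* was at 4.90 to 5.35 CPM in WT females and at 6.72 to 8.31 CPM in WT males, with Log2FC = -0.54 ± 0.140 (SE; q = 0.0519). Leaving out WT male 5D, WT female 4E, or WT female 5E removed both calls. The call of *Hba-a1* was also lost without WT male 7D (q = 0.119) and that of *Hba-a2* without WT male 1E (q = 0.109). The highest q with 1 animal left out was 0.164 for *Hba-a1* and 0.159 for *Hba-a2*, both without WT male 5D.

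*Hbb-bs* was at 46.4 to 56.4 CPM in WT females, below the lowest WT male at 60.8 CPM. The Log2FC of *Hbb-bs* was -0.39 (q = 0.115 from edgeR, 0.0835 from DESeq2, and 0.0702 once the letter entered the edgeR fit). For *Hbb-bt* it was -0.52 (q = 0.135), and the groups overlapped. *Hbb-bt* passed with the letter in the edgeR fit (q = 0.0825), without the filter on low counts (q = 0.0889), and without WT male 2D (q = 0.0917). The Log2FC of *Alas2* was -0.16 (q = 0.619), with -0.26 without WT male 2D, -0.10 without WT female 4E, and -0.05 without WT male 7D. WT females lay below WT males without overlap for *Hba-a1*, *Hba-a2*, and *Hbb-bs*, as they did for 5.32% of all genes tested. This comparison shares its WT males with that of *Kdm5c*-KO males, so the falls in both are not separate evidence. Outside the WT males, the ranges of *Hba-a1* overlapped, at 35.6 to 42.9 CPM in *Kdm5c*-HET females, 35.1 to 40.3 CPM in WT females, and 27.5 to 39.3 CPM in mutant males.

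The letter of the sample label was tested with the group means in the fit. Of all genes tested, 23.6% differed between letter E and letter D at q under 0.1, but none of the 5 genes did by edgeR or DESeq2. *Hbb-bs* alone had an unadjusted p under 0.05, with a Log2FC of -0.19 (95% confidence interval -0.37 to -0.02, q = 0.118 from edgeR). An unadjusted p under 0.05 was found for 29.7% of all genes, so 1 of 5 is no more than the background. *Hbb-bs* was lower with letter E among the WT females, at 46.4 to 47.3 CPM against 55.3 to 56.4 CPM, and among the *Kdm5c*-HET females, at 48.5 to 53.9 CPM against 55.5 CPM. The single WT male with letter E was also the lowest of its group, and in *Kdm5c*-KO males the letters overlapped. *Hbb-bs* was called by edgeR without the filter on low counts (q = 5.66e-05). There its Log2FC stayed at -0.20, while its standard error was 0.0412 in place of 0.0837. It was also called without WT male 2D, *Kdm5c*-KO male 6D, or *Kdm5c*-KO male 3E, where q reached down to 0.00692. Its Log2FC was -0.12 without *Kdm5c*-KO male 2E. The Log2FC of *Hba-a1* for letter E was -0.07 (q = 0.584) and that of *Hbb-bt* was 0.09 (q = 0.719). With each animal left out, the value ranged from -0.12 (without *Kdm5c*-KO male 3E) to -0.02 (without *Kdm5c*-KO male 2E) for *Hba-a1* and between 0.02 and 0.16 for *Hbb-bt*, the lower when WT female 1D and the higher when *Kdm5c*-KO male 2E was the animal left out.

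The share of counts that fell on the minor copy of each pair was then read in every animal, as a description. Of the counts on both beta genes, *Hbb-bt* took 4.38% in WT female 1D (exact binomial 95% confidence interval 3.47 to 5.44%) and 8.07% in WT female 5E (6.56 to 9.79%), the lowest and the highest of the 16 animals. These are the extremes of 16 animals, and the intervals cover counting error only. Which beta-globin haplotype each animal of this mixed background carried was not determined. The group medians ran from 5.71% in *Kdm5c*-HET females to 7.06% in WT males. Of the counts on both alpha genes, *Hba-a2* took from 9.84% in *Kdm5c*-HET female 8E (8.13 to 11.8%) to 14.9% in WT male 1E (12.9 to 17.0%). The medians lay between 11.2 and 12.6% in all groups. The alpha genes together held 40.0 to 48.3% of the hemoglobin counts, not corrected for gene length.

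**Figure D3:**
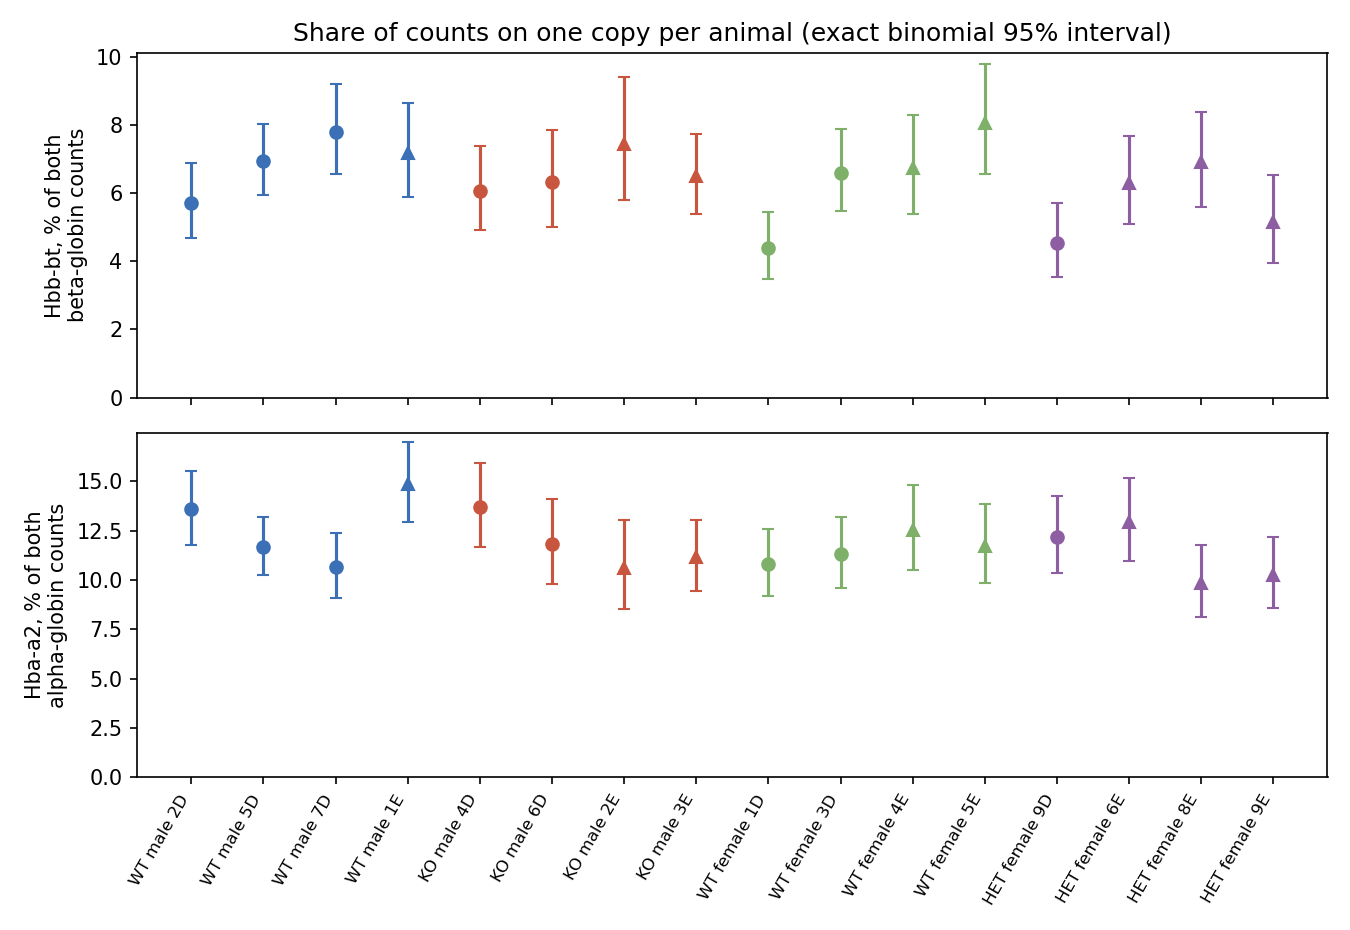
Percent of beta-globin counts on *Hbb-bt* (top) and of alpha-globin counts on *Hba-a2* (bottom) in each animal, with exact binomial 95% intervals that cover counting error only, circles for letter D and triangles for E. The shares run from 4.38 to 8.07% and from 9.84 to 14.9%, with all groups overlapping.

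The pooled within-group spread of the deeply counted hemoglobin genes was above that of most genes of their level, and *Kdm5c*-KO males gave much of it. The within-group standard deviation of log2 CPM was 0.232 for *Hbb-bs*, and 98.2% of the 2381 genes within 0.5 of its mean log2 CPM had a smaller one. For *Hba-a1* it was 0.165, above that of 93.7% of the 2503 genes near its level. *Kdm5c*-KO males held 77.0% of the within-group sum of squares of *Hbb-bs*, 46.6% of that of *Hba-a1*, and 69.5% of that of *Hba-a2*. Within single groups, the standard deviation of *Hbb-bs* was 0.408 in *Kdm5c*-KO males and 0.092 to 0.147 in the other groups. Without *Kdm5c*-KO male 2E, the pooled value was 0.155 for *Hbb-bs*, above 93.7% of the genes near its level, and 0.14 for *Hba-a1*, above 89.4%. Counting alone would give about 0.0396 for *Hbb-bs* and 0.0457 for *Hba-a1*. *Hba-a2* (0.206) and *Alas2* (0.202) lay above 52.6% and 25.5% of the genes near their level, and *Hbb-bt* (0.278) was above 70.1%. Both of the former depended on single animals. *Hba-a2* was at 0.148, above 15.4%, without *Kdm5c*-KO male 2E and at 0.174, above 31.0%, without *Kdm5c*-KO male 4D. *Alas2* was at 0.179, above 15%, without WT male 7D and at 0.184, above 16.7%, without WT male 2D.

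The genes also varied together to a limited extent. After the group means were removed, *Hbb-bs* and *Hba-a1* had a Pearson r of 0.721 over the 16 animals (permutation within groups, two-sided, p = 0.0185, 0.0927 after adjustment over the 10 pairs of genes) and a Spearman rho of 0.650 (permutation p = 0.0365, adjusted 0.182). Without the 2 animals farthest from the median of *Hbb-bs*, r was 0.565. *Hbb-bt* and *Alas2* had r = 0.730 (permutation p = 0.00725, adjusted 0.0725) and rho = 0.718 (permutation p = 0.00886, adjusted 0.0886), and r = 0.739 without the 2 animals farthest in *Hbb-bt*. *Hbb-bs* and *Hba-a2* had r = 0.706 (permutation p = 0.0623, adjusted 0.208) and rho = 0.338 (permutation p = 0.287, adjusted 0.461), and r dropped to 0.206 without the farthest 2. For *Hba-a1* and *Hba-a2*, r was 0.483 (permutation p = 0.191) and dropped to 0.109 without the farthest 2. Within letters, over the 14 animals that share group and letter with another, r ran from 0.257 to 0.913 over the 10 pairs. It was highest for *Hbb-bs* and *Hba-a2* (0.913), followed by 0.772 for *Hbb-bt* and *Alas2*, 0.719 for *Hbb-bs* and *Hba-a1*, 0.656 for *Hbb-bs* and *Hbb-bt*, and 0.634 for *Hba-a1* and *Hba-a2*. The relations of *Hba-a2* with *Hbb-bs* and *Hba-a1* thus fell without the farthest 2 animals. They were higher within letters, but those values kept the farthest animals and were not tested. Many sets of the same group and letter held only 2 animals. *Kdm5c*-KO males 2E and 3E, at 32.6 and 58.5 CPM of *Hbb-bs*, were the widest such pair, so the values within letters lean on *Kdm5c*-KO males. *Alas2* had r from 0.129 to 0.317 with *Hba-a2*, *Hbb-bs*, and *Hba-a1*. At an adjusted p under 0.1, *Hbb-bt* with *Alas2* passed by both r and rho and *Hbb-bs* with *Hba-a1* by r alone, and no pair passed at 0.05. The genes of each pair were measured in the same libraries.

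**Figure D4:**
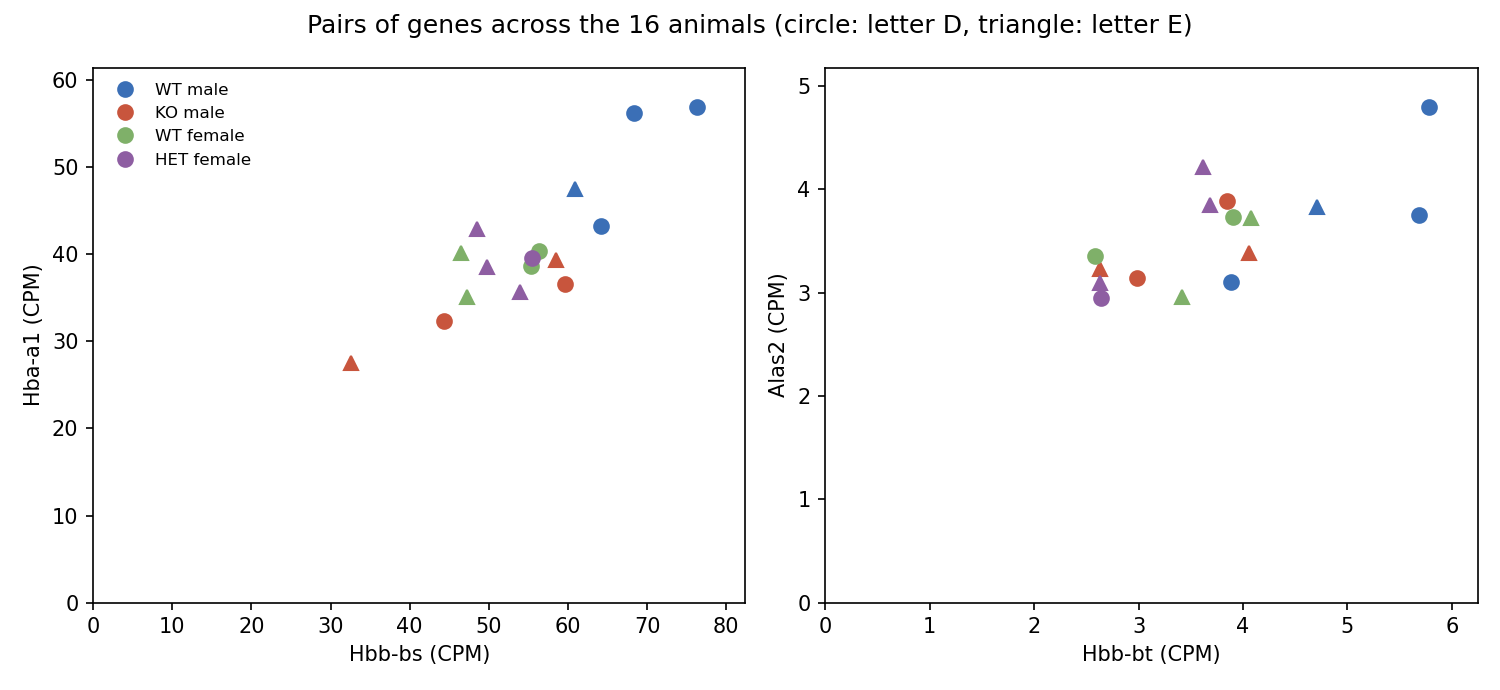
CPM of *Hba-a1* against *Hbb-bs* (left) and of *Alas2* against *Hbb-bt* (right) in each of the 16 animals, on linear axes from 0, coloured by group, with circles for letter D and triangles for E. WT males lie at the upper right of the left panel and *Kdm5c*-KO male 2E at the lower left, with 32.6 CPM of *Hbb-bs* and 27.5 CPM of *Hba-a1*.

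The genes whose pattern was most like that of hemoglobin were sought by Pearson r with the mean log2 CPM of the 4 hemoglobin genes over the 16 animals, group means removed, as a description. *Alas2* had r = 0.486 and ranked 656 of 17862 genes. Of the other 17861, 586 (3.28%) had r above 0.5 and 2.83% had r below -0.5. None of the 10 most alike is paired with a symbol in the tables used here. The highest were ENSMUSG00000038291 (r = 0.874, 1076 to 1670 counts) and ENSMUSG00000006494 (r = 0.861, 990 to 1426 counts), and the lowest were ENSMUSG00000068457 (r = -0.881, 0 to 347 counts, with 0 in all 8 females, so that r rests on the males) and ENSMUSG00000110350 (r = -0.834, 0 to 15 counts).

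Of 126 genes listed as markers of red cells, heme handling, other blood cells, endothelium, choroid plexus, and neurons, only 8 could be paired with an identifier, because the symbols come from the study's table of genes changed in these same animals. The origin of the hemoglobin reads from red cells could thus not be checked against other red cell markers, apart from *Tspo2* and *Fbxo7*. *Tspo2*, which encodes a membrane protein of late erythroid cells, had 4, 1, 0, and 1 counts in WT males 2D, 5D, 7D, and 1E and 12, 7, 17, and 18 counts in *Kdm5c*-KO males 4D, 6D, 2E, and 3E. Its Log2FC was 3.03 (q = 0.018 from edgeR). In *Kdm5c*-KO males *Tspo2* was thus called in the direction opposite to hemoglobin, and its within-group r with hemoglobin over the 16 animals was -0.258. WT females, with less hemoglobin than WT males, had 1, 0, 3, and 4 counts. Their Log2FC against WT males was 0.34 ± 0.950 (SE; q = 0.893 from edgeR), which gives no clear direction. *Kdm5c*-HET females had 8, 3, 16, and 10 counts beside hemoglobin in the range of WT females (Log2FC = 2.21, q = 0.366 from edgeR). The male and female effects of genotype on *Tspo2* were not called different (interaction q = 0.932 from edgeR). In *Kdm5c*-KO males, *Fbxo7*, a ubiquitin ligase subunit made in many tissues, had a Log2FC of 0.15 (q = 0.0537 from edgeR), also opposite to hemoglobin. *Mb*, which encodes the muscle oxygen carrier myoglobin, had a Log2FC of 2.02 (q = 0.0104). It went from 1 to 5 counts in WT males to 11 to 19 in *Kdm5c*-KO males. *Hmox2*, the constitutive heme oxygenase, had a Log2FC of -0.19 there (q = 0.0459). Higher calls made up 3.55% of all genes tested in this comparison. Because these genes were chosen by the study on these samples, their calls are not independent evidence. None of these 4 genes passed q under 0.1 in *Kdm5c*-HET females with edgeR, where *Tspo2* and *Mb* had an unadjusted p under 0.05.

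Of 10 listed choroid plexus markers, 3 could be paired. Each was called lower in *Kdm5c*-KO males, as were 1.69% of all genes tested, but pairing required a place in the study's table of changed genes, so these calls carry no weight of their own, and the other 7 markers were not seen. Within groups, their r with hemoglobin over the 16 animals was -0.0199 for *Ttr*, 0.0902 for *Aqp1*, and -0.014 for *Slc4a5*. *Ttr*, the transthyretin of choroid plexus epithelium, had 5380, 5849, 125, and 6 counts in WT males 2D, 5D, 7D, and 1E and 40 to 60 in *Kdm5c*-KO males. *Aqp1* had 17 to 93 counts in WT and 8 to 16 in *Kdm5c*-KO males, and *Slc4a5* had 15 to 81 and 14 to 21. The *Ttr*-rich WT males 2D and 5D had the lowest and the highest hemoglobin of their group. WT males 7D and 1E, with 125 and 6 counts of *Ttr*, had 137 and 121 CPM of hemoglobin, above each *Kdm5c*-KO male. WT females 1D and 3D had 5389 and 5577 counts of *Ttr* and 104 and 103 CPM of hemoglobin, beside 103 CPM in *Kdm5c*-HET female 9D with 17 counts of *Ttr*.

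Because hemoglobin differed between *Kdm5c*-KO and WT males, the genotype comparisons of all other genes were refitted with the mean log2 CPM of the 4 hemoglobin genes as a covariate and the 5 genes left out. The covariate ranged from 4.05 to 4.38 in WT males and from 3.25 to 3.91 in *Kdm5c*-KO males, so it did not overlap between them. In males, edgeR called 635 genes higher and 296 lower without the covariate and 123 and 9 with it, of which 118 and 7 were called in both fits. With the covariate the median Log2FC of the 635 genes was 0.62 in place of 0.63, and all 635 kept their direction. Their median standard error rose from 0.128 to 0.213. For the 296 lower genes, the median Log2FC was -0.21 in place of -0.24, again with all directions kept. Their median standard error rose from 0.0623 to 0.106. Both sets were picked by their calls without the covariate in these same animals. Their kept directions and sizes are therefore not evidence that the differences are separate from hemoglobin level. Because the covariate did not overlap between the male groups, hemoglobin level and genotype cannot be told apart in males. Without the covariate, the count of lower genes also depended on single animals: it was 121, 105, and 156 without WT male 2D, 5D, or 7D, and 110 and 130 without *Kdm5c*-KO male 2E or 3E.

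In females, where the covariate was at 3.70 to 3.81 in *Kdm5c*-HET and at 3.72 to 3.85 in WT animals, 77 of the 86 genes called higher were called with it, and 3 of the 5 called lower. Without the covariate, leaving out WT female 3D gave 50 higher genes, and leaving out *Kdm5c*-HET female 8E gave 51. The count of lower genes was 0 without WT female 3D and 1 to 3 without WT male 7D or 1E, *Kdm5c*-KO male 6D, WT female 1D, 4E, or 5E, or *Kdm5c*-HET female 6E, 8E, or 9E. With the label letter alone as a covariate, 144 genes were higher and 13 lower in females, and 855 and 605 in males. With both covariates the counts were 138 and 15 in females and 223 and 72 in males.

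**Figure D5:**
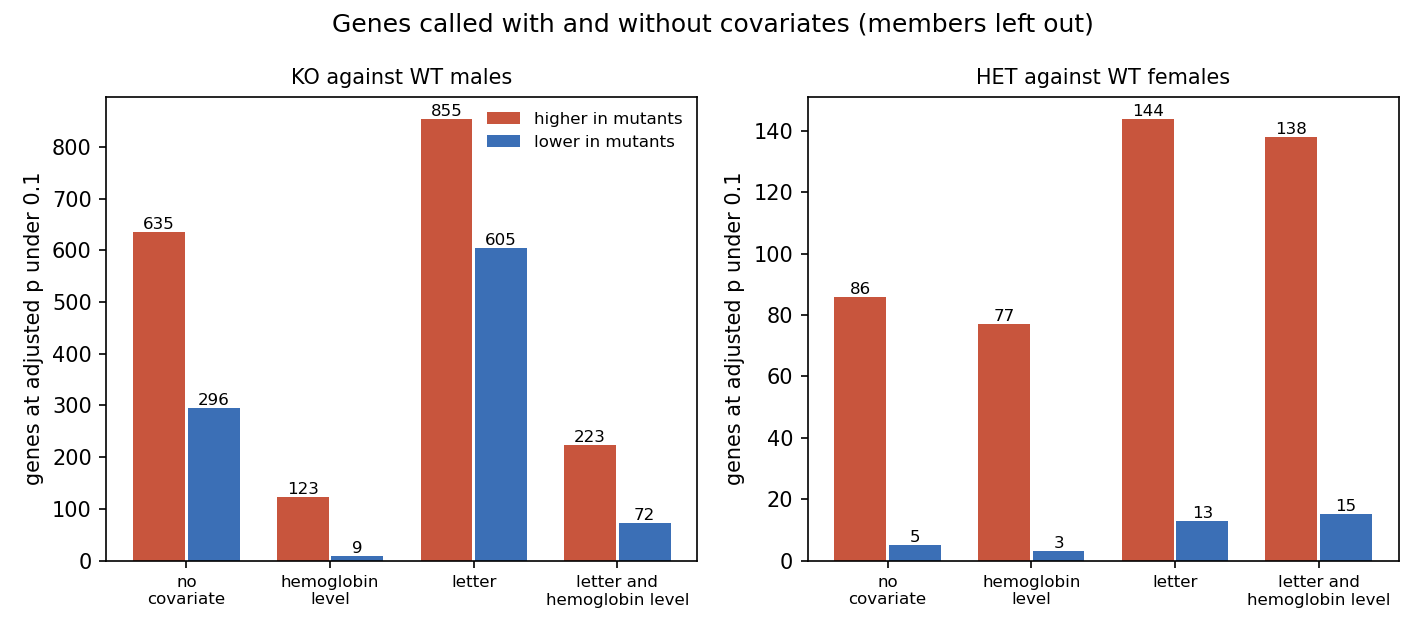
Number of genes at q under 0.1 in *Kdm5c*-KO against WT males (left) and *Kdm5c*-HET against WT females (right), higher or lower in mutants, with the covariates named under each pair of bars and the 5 genes left out. In males the hemoglobin level as a covariate lowers the counts from 635 and 296 to 123 and 9, and in females from 86 and 5 to 77 and 3.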

How the data were processed

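Poly(A)-enriched, directional RNA libraries of 16 P6 forebrains (4 per group) were sequenced by the authors. Per the paper's methods and the submitters' processing notes, they mapped reads to mm10 with STAR 2.5.3a, dropped duplicates and reads that map to several places, and counted reads per gene with featureCounts of Subread 1.5.0. The strand setting is not given in the sources used here. The deposited values are raw counts, without normalization, for 54219 genes. Columns were matched to animals by number and letter.

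The analysis used edgeR 4.0.16 under R 4.3.3. The 17866 genes that passed filterByExpr were TMM-normalized, and glmQLFit estimated a mean for each group from all 16 animals. Contrasts were tested with glmQLFTest, and Benjamini-Hochberg adjusted over the genes tested, at q under 0.1. The letter contrast added the letter to the group means. Standard errors were taken from the Log2FC and the F statistic. Log2 CPM used a prior count of 2. Correlations used residuals from group means and 100000 permutations within groups. The procedure was tested on simulated counts. DESeq2 1.42.0 and its size factors, no filter, the letter as a covariate, q under 0.05, copies summed, and leaving out each animal were the alternatives. Leaving out each animal was applied to the within-group spread after seeing the data. The 24 pairs of animals within groups had chi-square statistics per gene of 2.89 to 15.3, above sampling noise, given as a description. Each library is labelled as a separate animal and was taken as 1 replicate. The labels do not say how animals were spread over litters.

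The genes named are the 5 genes themselves, the paired genes of the marker lists, and, by identifier, the 2 most and the 2 least alike genes. Of the paired genes, 1 is not reported here. Symbols of the 5 genes came from the definition of the gene set, and those of other genes from the study's supplementary table (1014 pairs). Coordinates are those of RefSeq on GRCm38.p6. The 5 genes and the lists were chosen with earlier results of these data known. The supplementary table's fold changes and p-values were not used.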

Additional observations from a re-analysis of the deposited data

How the results depend on the processing

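In *Kdm5c*-KO against WT males and in WT females against WT males, no Log2FC of the 5 genes changed sign in any alternative that gave a value. The number of the 5 called in *Kdm5c*-KO males was between 2 and 4. In WT females against WT males, 2 were called, 4 without the filter on low counts, 4 with the label letter as a covariate, 1 at q under 0.05, and between 0 and 3 with each animal left out; DESeq2 gave no adjusted p for *Hba-a2*, *Hbb-bt*, and *Alas2* there, and copies summed does not apply to *Alas2*. For the interaction, 0 were called, 1 with DESeq2, 2 without the filter, and 1 with the letter. For the letter, 0 were called, 1 without the filter, and 0 or 1 with each animal left out. With copies summed, the Log2FC in females changed sign for *Hbb-bt* (0.00435) and *Hba-a2* (0.0169), and that for the letter for *Hbb-bt* (-0.18), where the summed value is mostly *Hbb-bs* or *Hba-a1*; for the changes above the cause was not tested. With each animal left out, the Log2FC in females ranged from -0.0335 to 0.0597 for *Hbb-bs*, -0.0249 to 0.0643 for *Hba-a1*, -0.0727 to 0.0518 for *Hba-a2*, and -0.0625 to 0.11 for *Alas2*, and the Log2FC for the letter from -0.13 to 0.0328 for *Hba-a2* and -0.0681 to 0.061 for *Alas2*. Of the other genes, 123 were called higher and 9 lower in males with the hemoglobin level as a covariate, 118 and 7 of them also without it. In females, 3 were called lower with it. Adding the letter gave 223 and 72 calls in males, of which 185 and 37 were among those of the main fit. It gave 138 and 15 in females, of which 84 and 5 were among those of the main fit. With the hemoglobin level in the fit, the median Log2FC in males was 0.62 in place of 0.63 for the 635 higher genes. It was -0.21 in place of -0.24 for the 296 lower genes. All kept their sign, but both sets were picked by their calls without the covariate in these same animals. The median standard error rose from 0.128 to 0.213 and from 0.0623 to 0.106. In fits that each left out 1 animal, 105 (without WT male 5D) to 422 were lower in males, 50 (without WT female 3D) to 84 higher in females, and 0 (without WT female 3D) to 7 lower in females. *Hbb-bt* and *Alas2*, with 62 to 165 and 71 to 109 counts, have wide intervals.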
